A study of Drosophila melanogaster with 2 samples.

Results

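The peaks described here came from precipitation of Lim3-eGFP and lay where the promoters of 2 genes on opposite strands meet. A member is a peak of the larger list of both libraries whose summit was within 500 bp of a transcript start and within 1000 bp of protein-coding starts of 2 different genes on opposite strands. Of the 1500 peaks of that list, 1445 lay on the 7 chromosome arms, 670 of those were at a promoter, and 268 were members. The other 402 promoter peaks did not meet the pairing rule and are called single-direction here. That rule did not count non-coding starts or pairs beyond 1000 bp, so some of the 402 may have starts in both directions. Of them, 34 had paired starts within 1500 bp. The members covered 249 distinct gene pairs with 497 genes, since 18 pairs held more than 1 peak and 1 pair held 3. The chromatin came from whole Drosophila melanogaster embryos of 8 to 24 h of the Lim3-GFP strain, which carries an insertion that expresses Lim3 fused to eGFP, and it was precipitated with an antibody against GFP. There was 1 group, with 2 biological replicates, and no strain without the fusion and no input library was analysed here. Whether Lim3 itself bound at each peak was therefore not tested. Whole embryos mix all tissues, so the cells that gave a peak cannot be told apart.

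Lim3 is a LIM-homeodomain transcription factor, known for its part in the identity of motor neurons that innervate ventral muscles, and proteins of its family bind AT-rich sites with a TAATTA core. A divergent promoter is a stretch of DNA from which 2 genes are read in opposite directions, and in the compact fly genome many widely expressed genes share one. Such promoters often carry the DNA replication-related element (DRE), the CGATA core of the insulator protein BEAF-32, or Motif 1, while GAGAG, the site of the GAGA factor, is better known from developmental promoters.

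The DNA between the paired starts is shown for members with a summit inside it, because most members had their summit there. Shown are 6 of the 8 strongest divergent members of X, 2L, 3L and 3R whose starts were at most 300 bp apart with no annotated UTR base between them. Capitals mark, on either strand, CGATA and AATGTA and GGTCAC, and 5 words that had a preferred direction toward the summit, described below. CGATA and AATGTA did not differ detectably between members and single-direction promoter peaks after adjustment, so their marks show position only. The other 2 stretches held none of these words. The sequences are from release 6 of the fly genome (dm6), the minus-strand gene is named first, and the starts of the genes flank the stretch.
CG7601/CIA30, chr3R:29736746-29736964, plus strand: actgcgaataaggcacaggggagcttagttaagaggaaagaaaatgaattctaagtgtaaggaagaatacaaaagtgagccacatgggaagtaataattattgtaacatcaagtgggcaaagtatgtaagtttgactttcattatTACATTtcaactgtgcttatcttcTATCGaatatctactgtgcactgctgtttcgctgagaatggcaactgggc
Art3/mRpS10, chr3R:15229409-15229664, plus strand: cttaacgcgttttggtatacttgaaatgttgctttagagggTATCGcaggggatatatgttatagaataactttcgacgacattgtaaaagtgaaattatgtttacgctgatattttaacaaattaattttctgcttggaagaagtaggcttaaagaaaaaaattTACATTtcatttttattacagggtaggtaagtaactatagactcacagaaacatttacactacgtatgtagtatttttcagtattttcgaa
Tcs5/CHMP2B, chr3L:5139396-5139618, plus strand: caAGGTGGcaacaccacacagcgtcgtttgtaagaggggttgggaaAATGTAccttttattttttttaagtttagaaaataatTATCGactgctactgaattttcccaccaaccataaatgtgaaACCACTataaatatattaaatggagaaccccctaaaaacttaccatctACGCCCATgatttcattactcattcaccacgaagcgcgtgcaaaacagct
Atat/Shc, chr3L:9426759-9427009, plus strand: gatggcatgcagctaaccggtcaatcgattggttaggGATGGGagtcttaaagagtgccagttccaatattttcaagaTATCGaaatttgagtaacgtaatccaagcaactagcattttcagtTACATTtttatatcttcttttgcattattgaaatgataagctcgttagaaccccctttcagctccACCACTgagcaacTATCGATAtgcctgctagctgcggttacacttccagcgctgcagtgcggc
CG13390/CG17294, chr2L:8376798-8377034, plus strand: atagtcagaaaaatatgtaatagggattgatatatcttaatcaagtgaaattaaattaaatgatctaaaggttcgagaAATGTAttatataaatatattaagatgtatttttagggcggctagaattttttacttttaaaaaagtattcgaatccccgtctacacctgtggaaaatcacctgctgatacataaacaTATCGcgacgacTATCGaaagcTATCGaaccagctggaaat
fws/Lamtor3, chr2L:17481030-17481230, plus strand: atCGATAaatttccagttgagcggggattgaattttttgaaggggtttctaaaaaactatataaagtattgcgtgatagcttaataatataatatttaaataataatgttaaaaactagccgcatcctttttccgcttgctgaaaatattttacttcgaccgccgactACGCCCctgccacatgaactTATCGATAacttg
The Mnat9/CG1792 and CG3437/CG3552 stretches are the 2 that are not shown. In the stretch between CG7601 and CIA30 the summit was at base 86 of 219, between Art3 and mRpS10 at base 118 of 256, and between Tcs5 and CHMP2B at base 106 of 223. The 6 stretches had between 57.0% and 69.9% A+T.

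The 10 strongest members were all in the lists of both replicates. Signal below is the authors' value per peak. Its scale is not stated in the deposited descriptions, so it serves to rank and describe peaks within 1 list. The first member, at chrX:2703760-2704026, had a signal of 769.9 in the larger list, and its overlapping peaks had 389.6 in replicate 1 and 389.4 in replicate 2. It lay between eIF2Bbeta, which encodes a subunit of the exchange factor of translation initiation factor eIF2, and Ugalt, which encodes a UDP-galactose transporter of the Golgi. The second lay between CG8079 and mRpL41, with 754.6 in the larger list, and with 446.0 and 305.2 for the replicates in order. The third lay between CIA30, which encodes an assembly factor of respiratory complex I, and CG7601, with 708.6, 366.0 and 346.4 in the same order. These 3 were among the strongest peaks of each replicate, at ranks 11, 7 and 13 of 104680 ranked peaks in replicate 1 and ranks 3, 9 and 4 of 113860 in replicate 2.

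Of all 268 members, 8 lay at a gene of the mitochondrial ribosome, and 4 of these were among the 10 strongest. Beside mRpL41, these 4 were mRpL23 with CG9004 (signal 695.7 in the larger list), mRpS10 with Art3, an arginine methyltransferase gene (581.6), and mRpS23 with CenG1A, a gene for an Arf GTPase-activating protein (461.1). The other members among the 10 were Ssl1, a subunit of the transcription factor TFIIH, with Chro, the chromodomain protein Chromator (581.9), CHMP2B, an ESCRT-III subunit, with Tcs5 (580.3), Gprk2, a kinase of G protein-coupled receptors, with PNPase, the mitochondrial polynucleotide phosphorylase (536.6), and Mtl, a GTPase of the Rac family, with CG5611 (467.9). In replicate 1 the 10 peaks held ranks between 7 and 32, and in replicate 2 between 3 and 21. In 7 of the 10 the summit lay between the paired starts. At mRpL23 with CG9004, Ssl1 with Chro and Gprk2 with PNPase it lay beyond a start, in an annotated 5' UTR.

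The signals of members were close to those of single-direction promoter peaks. The median was 101.5 in the 268 members (interquartile range 76.4 to 160.2) and 101.0 in the 402 single-direction peaks (73.9 to 155.1), and the medians differed by far less than either range. Of the members, 159 (59.3%, Wilson 95% interval 53.4 to 65.0) exceeded the median of all arm peaks, 90.6, against 223 single-direction peaks (55.5%, 50.6 to 60.3). Fisher's exact test, two-sided, did not separate them (odds ratio 1.17, 95% interval 0.86 to 1.60, p = 0.34). The same share was 43.9% in the 775 arm peaks away from promoters (odds ratio of members against these 1.86, 1.41 to 2.47, exact p = 1.44e-05). Peaks are not replicates, so these tests and intervals cover the counting of peaks only, and read depth is unknown. When paired starts had to lie within 500 bp, 220 peaks counted as members and 450 as single-direction. The members that no longer met the rule were among the 450. The shares were then 63.2% of members and 54.0% of single-direction peaks, and the test passed (odds ratio 1.46, exact p = 0.025).

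The weakest members were mostly second peaks beside a stronger one. In all, 13 members had a signal under 30, the next value was 46.5, and 12 of the 13 overlapped a stronger member. The lowest had 2.83 in the larger list and overlapped a member with 102.0, both at Dus2, a tRNA dihydrouridine synthase gene, and Fbxl4, an F-box protein gene. Both were matched to the same ranked peaks, with 36.7 in replicate 1 and 65.9 in replicate 2. At RanGAP, the Ran GTPase activator, and Hs2st, a heparan sulfate sulfotransferase, the peaks of 6.34 and 134.4 shared a replicate 1 peak of 85.1, while their replicate 2 peaks had 4.31 and 48.0. Of all members, 24 shared their ranked peak of replicate 1 with another peak of the larger list and 20 that of replicate 2, so a replicate value at overlapping peaks may not be the weaker peak's own.

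The signals of members were correlated between the 2 replicates, but the replicates did not list the same members. Of the 268 members, 250 overlapped a ranked peak in replicate 1 and 265 in replicate 2, with median signals of 59.4 and 51.6 on the replicates' own scales. Over the 247 with both values, Spearman's rho was 0.65, against 0.64 over 349 single-direction peaks, given as a description because peaks share libraries and depth. In the thresholded lists, 177 members (66.0%, 60.2 to 71.5) were in replicate 1's list and 144 (53.7%, 47.8 to 59.6) in replicate 2's, with 115 (42.9%, 37.1 to 48.9) in both and 62 in neither. The single-direction peaks had the opposite lean, with 217 (54.0%, 49.1 to 58.8) in replicate 1's list and 248 (61.7%, 56.8 to 66.3) in replicate 2's. Members were listed more often than single-direction peaks in replicate 1 (odds ratio 1.65, 95% interval 1.20 to 2.28, p = 0.0023) and less often in replicate 2 (0.72, 0.53 to 0.99, p = 0.045), by Fisher's exact test. With the 12 members and 11 single-direction peaks that overlapped a stronger listed peak left out, the odds ratios were 1.73 (exact p = 0.0011) and 0.71 (exact p = 0.041).

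**Figure D1:**
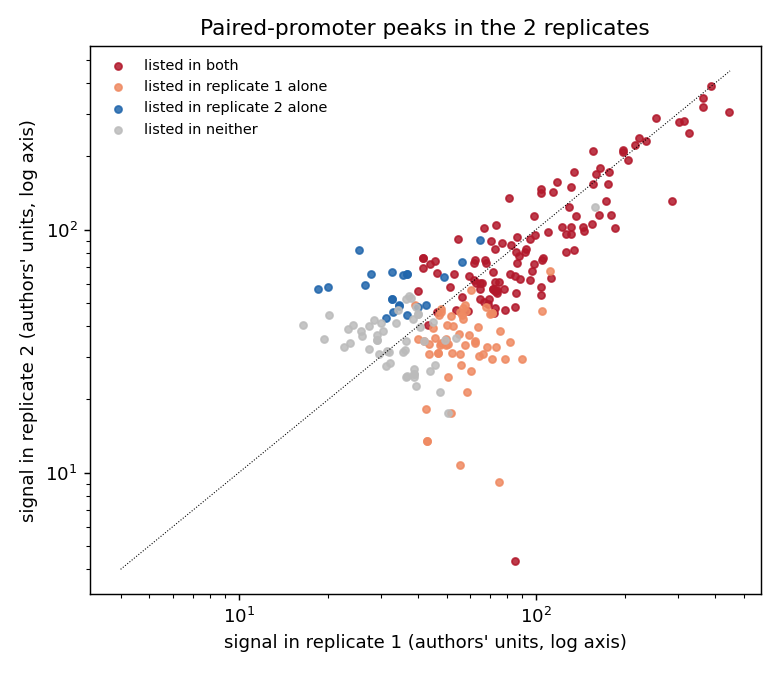
Signal of the overlapping ranked peak in replicate 1 (x axis) and replicate 2 (y axis) for the members with a value in both, on log axes in the authors' units, coloured by the lists that held the peak; the dotted line marks equal values. Members listed in both spread along the line up to 446.0 in replicate 1 and 389.4 in replicate 2, and those listed in replicate 1 alone sit mostly below it.

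The difference between the replicates was tested on peaks listed in 1 of them. Of 91 such members, 62 (68.1%, 58.0 to 76.8) were in replicate 1's list, against 60 of 151 single-direction peaks (39.7%, 32.3 to 47.7; odds ratio 3.20, 1.86 to 5.53, Fisher's exact p = 2.06e-05). This comparison was chosen after the data were seen and restates the lean above on the same peaks, so it is no independent support for it. Within strata of GC content the odds ratio was 3.08 (Mantel-Haenszel method). Members listed in replicate 1 alone had a median GC content of 33.5% in the 200 bp around the summit, and those in replicate 2 alone 36.0%, while among single-direction peaks the medians were 36.5% and 34.5%. With 1 library per replicate, the replicate and its library preparation cannot be told apart. The share in both lists did not differ detectably between members (42.9%) and single-direction peaks (39.1%; odds ratio 1.17, 0.86 to 1.60, exact p = 0.34), and 200 of 775 other arm peaks (25.8%) were in both.

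**Figure D2:**
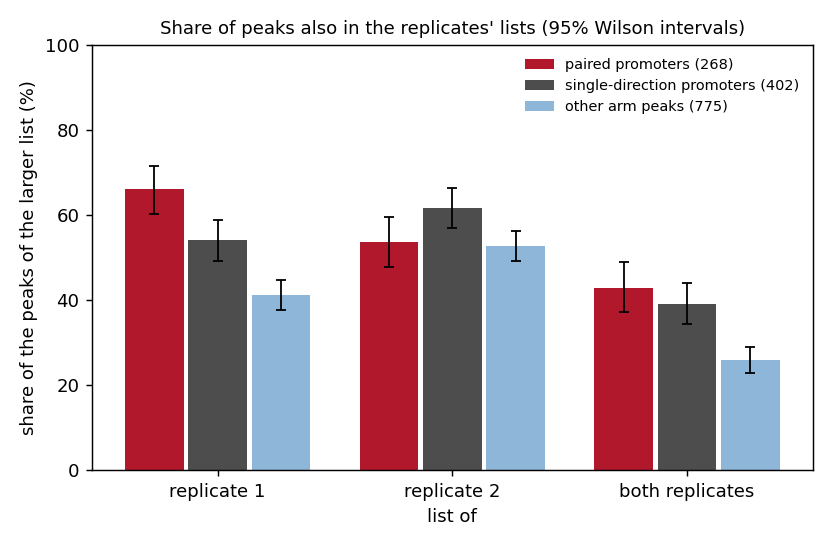
Share of the peaks of the larger list that overlapped a peak in the list of replicate 1, of replicate 2 or of both, for members, single-direction promoter peaks and other arm peaks; error bars are Wilson 95% intervals. Members stand above single-direction peaks in replicate 1 (66.0% and 54.0%) and below them in replicate 2 (53.7% and 61.7%).

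Members with a higher signal in the larger list were more often in both replicates' lists. The larger list was derived from the same 2 libraries as the replicates' lists, so this order was in part fixed in advance. Of the 67 strongest members, with signals of 160.2 and above, 62 were in both lists. So were 46 of the 67 after these, 4 of the 67 that followed and 3 of the 67 weakest. The 3 among the weakest all overlapped a stronger peak. Of the 5 strong members that were not in both lists, the peak between CG18428 and eIF4EHP, a cap-binding repressor of translation, had 283.2 in the larger list and ranks of 72 and 113 in replicates 1 and 2, and it was in neither list. Those at Dp1 with imd (207.3), CG11267 with MICAL-like (172.2) and Sk2 with scramb2 (162.9) were in replicate 2's list alone, and that at loj with CG10467 (179.1) in replicate 1's alone. The 67 strongest also had the lowest median GC content of these 4 sets, 31.5%, against 36.0% in the 67 weakest.

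Listed promoter peaks were paired more often than ranked peaks that did not reach the list. Ranked-only peaks are those of the 142438 ranked peaks of both libraries that overlapped no peak of the larger list. Members made up 268 of 670 listed promoter peaks (40.0%, 36.4 to 43.8), against 3339 of 18400 ranked-only promoter peaks (18.1%, 17.6 to 18.7; odds ratio 3.01, 2.57 to 3.53, Fisher's exact p = 4.02e-38). The difference remained within strata of GC content (odds ratio 2.54) and in the lists of either replicate (3.78 in replicate 1, 2.59 in replicate 2). Of 2090 gene pairs with a ranked peak of either kind, 249 (11.9%) had a member.

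Most members had their summit between the 2 starts. Of the 268, 261 were divergent, with the plus-strand start to the right of the minus-strand start, and 7 had overlapping starts. The summit was between the paired starts in 217 members (81.0%, 75.8 to 85.2), against 1009 of 3339 ranked-only peaks at paired promoters (30.2%, 28.7 to 31.8; odds ratio 9.75, 7.13 to 13.3, Fisher's exact p = 8.47e-61). Within strata of GC content, an alternative added after the data were seen, the odds ratio was 2.78 and still passed. The median distance of the summit to the midpoint of the starts was 72.5 bp in divergent members and 370 bp in divergent ranked-only peaks. A summit between close starts is near their midpoint in any case, so this distance partly restates the share between the starts. Of 216 divergent members with the summit between the starts, 101 (46.8%) had it in the middle of 3 equal parts. Of the other 45 divergent members, 22 lay beyond the plus-strand start and 23 beyond the minus-strand start.

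**Figure D3:**
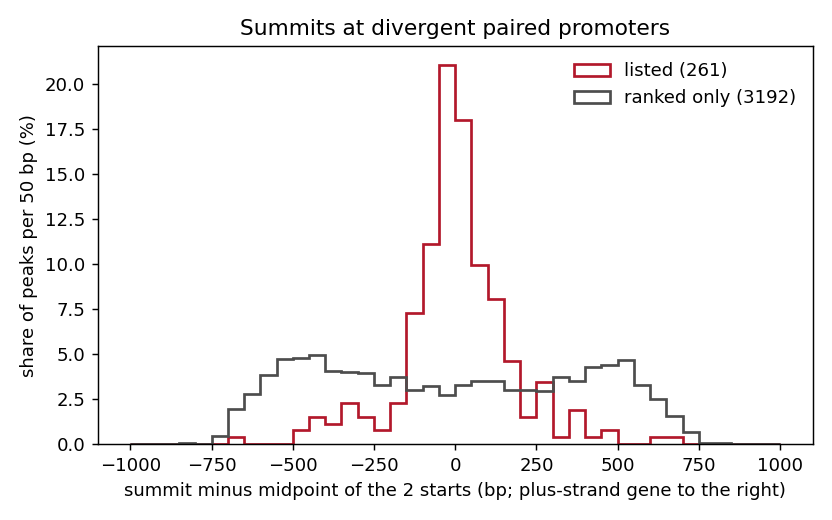
Distance of the summit to the midpoint of the paired starts (x axis, bp) for 261 divergent members and 3192 divergent ranked-only peaks, as the share of each set per 50 bp (y axis). The members lie nearer the midpoint, with a median distance of 72.5 bp, while the ranked-only peaks are spread out, with a median distance of 370 bp.

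The starts of divergent members were 298 bp apart at the median (interquartile range 242 to 466), against 363 bp (231 to 563) at ranked-only peaks. At most 500 bp separated them in 202 of 261 members (77.4%) and in 2187 of 3192 ranked-only peaks (68.5%). Among members in both replicates' lists, the shortest distances were 12 bp at CG1785 with CG2004, 27 bp at CG34126 with CG8892, 33 bp at CG8320 with the peroxisome gene Pex11ab, 33 bp at Elp5, a subunit of Elongator, with CG1275, and 36 bp at the nucleoside transporter gene Ent2 with the tRNA methyltransferase subunit gene Trmt6. In all 5 the summit lay outside the short stretch, inside a gene. The longest were 1176 bp at SkpA, a component of SCF ubiquitin ligases, with the histone methyltransferase gene Hmt4-20, 1149 bp at CG8788 with alc, the AMPK beta subunit gene, 1119 bp at CG17778 with CG17896, 1039 bp at CG8419 with the transporter gene SLC5A11, and 1015 bp at the exosome gene Rrp40 with Eno, which encodes enolase. In all 5 of these the summit lay between the starts. By the annotation of all transcripts, 157 member summits were intergenic, 57 intronic, 46 in a 5' UTR, 6 in coding sequence and 2 in a 3' UTR.

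At the limits of the rule, the members farthest from any start were at Or88a, an odorant receptor gene, with CG12402 (495 bp, signal 75.9) and at CG17778 with CG17896 (492 bp, 248.7). Just outside 500 bp were the peaks at CG12935 with wde (512 bp, 221.3) and at kuk with Keap1 (535 bp, 148.1). For the 1000 bp limit, the farther start was 998 bp away at a second peak of CG8419 with SLC5A11 (60.1) and 994 bp at E(spl)mdelta-HLH with CG43116 (87.2). Just beyond it were CG46448 with CG43750 (1005 bp, 55.6) and BEAF-32 with Spred (1010 bp, 71.7).

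The genes at members were counted in lists of housekeeping and neuronal genes, with no test. Of 4083 coding genes at paired promoters with a ranked peak, 497 (12.2%) were at a member. For cytoplasmic ribosomal proteins it was 14 of 47 genes (29.8%), for mitochondrial ribosomal proteins 8 of 46 (17.4%), for translation initiation and elongation factors 5 of 20, for Mediator, TFIID and RNA polymerase subunits 9 of 38 (23.7%) and for aminoacyl-tRNA synthetases 3 of 16 (18.8%). Single-direction peaks, by their nearest start, reached 3 cytoplasmic ribosomal protein genes and no mitochondrial one, among 378 genes in all. Each of these peaks counts at 1 gene and each member at 2, and no background share was computed for single-direction peaks. The counts of the 2 classes are therefore not alike. At the other end, 0 of 18 DNA replication genes, 0 of 4 mitochondrial import genes, 1 of 20 proteasome genes and 1 of 21 splicing genes at such promoters were at a member. The respiratory chain had 3 of 31 genes at a member, ubiquitin enzymes and the COP9 signalosome 2 of 21, insulator and promoter-architecture proteins 2 of 8, Polycomb and Trithorax group genes 2 of 7 and the Notch pathway 1 of 6. Of 14 motor neuron transcription factor genes none had a paired promoter with a ranked peak, of 15 pan-neuronal genes 1 did and of 9 LIM-homeodomain genes and cofactors 2 did, and none of these were at a member.

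The members of the 2 ribosomal lists are given by signal, with no test between the lists. The 8 members at mitochondrial ribosomal protein genes had signals of 754.6, 695.7, 581.6, 461.1, 134.6 (mRpS2 with Mon1), 133.6 (mRpL24 with betaggt-I), 96.2 (mRpL20 with Icmt) and 74.7 (mRpS6 with Cip4), and 5 were in both replicates' lists. The cytoplasmic ribosomal list had 16 members at its 14 genes, of which 1 was in both lists. Its strongest was RpL32 with CG7943 (160.2, 76.6 and 88.0 in the larger list and the replicates), followed by RpS27 with the nuclear pore gene Nup37 (112.7, 49.0 and 63.6). The others ran between 3.61 and 104.1. The 4 weaker mitochondrial members lay within the range of the cytoplasmic ones, and the 4 stronger ones above it.

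The remaining lists included members at genes of chromatin and transcription. The peak at Cp190, an insulator protein, with CG4338 had 171.7 in the larger list and 82.6 and 86.5 in replicates 1 and 2. The peak at brm, the ATPase of the fly SWI/SNF complex, with Arl1, a Golgi GTPase, had 280.2, 118.0 and 156.9. The peak at E(z), the histone H3K27 methyltransferase of the Polycomb group, with Cnep1r2 had 122.4, 74.1 and 54.7. All 3 were in both lists, as were MED27 of Mediator with elm (150.8, 82.0 and 65.6) and the TFIID gene Taf5 with Pex6 (129.6, 53.1 and 65.8). At Rpn3, a proteasome gene, with l(2)37Bb there were 2 peaks, with 262.4 in the larger list between the starts and 59.8 in the coding sequence, and the second was in neither list. Fum1, fumarase, with the complex I gene ND-ASHI (140.5) was in both lists, while ND-24 with corolla (88.2) was in replicate 2's alone. IleRS with Hem, a SCAR complex gene (105.3), SerRS with CG17260 (97.5), Usp12-46 with the glycosyltransferase gene rumi (87.6) and Uba3, of the NEDD8 pathway, with tum (57.4) were in replicate 1's alone. SmD3 of the spliceosome with Oda (99.2) was in replicate 2's alone, and aph-1, of gamma-secretase, with Snx21 (99.4) was in neither.

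The DNA at the summits was AT-rich. A+T reached 68.5% in the 20 bp next to the summit of members and averaged 67.4% within 50 bp, 59.2% at 100 to 200 bp and 51.9% beyond 400 bp. Single-direction peaks had 65.9%, 55.6% and 57.1% in the same 3 zones, and ranked-only peaks with the summit between paired starts 59.9%, 59.2% and 55.1%. The median GC content of the 200 bp window was 33.8% in members, 35.0% in single-direction peaks and 48.5% in ranked-only peaks at paired promoters (39.0% with the summit between the starts).

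**Figure D4:**
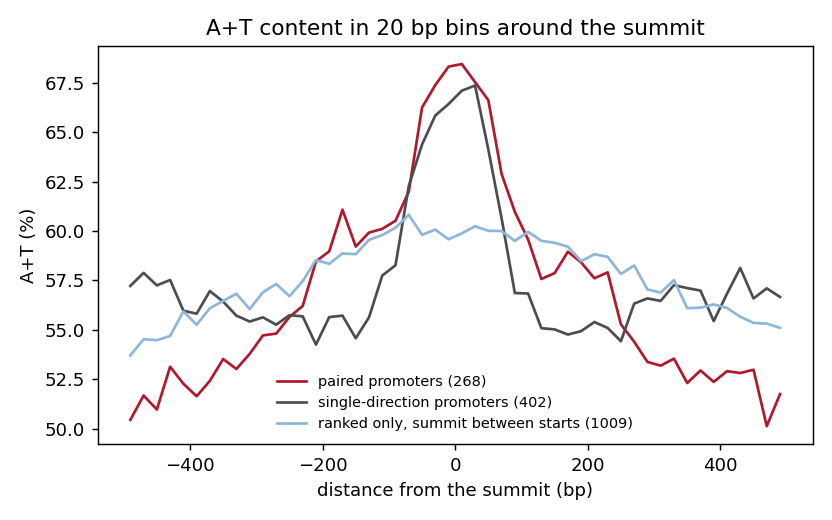
A+T content (y axis, %) in 20 bp bins by distance from the summit (x axis, bp) for members, single-direction promoter peaks and ranked-only peaks with the summit between paired starts. Members rise to 68.5% at the summit and average 51.9% beyond 400 bp, while the ranked-only peaks average 59.9% within 50 bp.

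Few words separated members from single-direction promoter peaks. All hexamers, each counted with its reverse complement, were searched in 200 bp windows around the summit. By Fisher's exact test with Benjamini-Hochberg adjustment, 1 was more frequent in members (0.0481% of those tested) and 1 less frequent (also 0.0481%). GGTCAC lies within the consensus of Motif 1. It was in 25 members (9.33%) and in 8 single-direction peaks (1.99%, odds ratio 4.86, 95% interval 2.20 to 10.7, adjusted p = 0.038 by the exact test). GAGAGA was in 9 members (3.36%) and in 49 single-direction peaks (12.2%; odds ratio 0.26, 0.13 to 0.53, adjusted p = 0.038 by the exact test). Next were AATGTA, in 29.9% of members and 16.7% of single-direction peaks (adjusted p = 0.059), and CGATAG, in 16.4% and 7.21% (adjusted p = 0.11), which did not pass the exact test after adjustment. Within strata of GC content GGTCAC passed (Mantel-Haenszel odds ratio 5.75) and GAGAGA did not, at the same odds ratio of 0.26. Without replicate 1 neither passed (adjusted p of 0.48 for GGTCAC and 0.59 for GAGAGA, exact test), and without replicate 2 GAGAGA passed (0.032) and GGTCAC did not (0.67), with odds ratios in the same direction. The panel's longer Motif 1 word was in 6 members (2.24%) and 6 single-direction peaks (1.49%; odds ratio 1.51, adjusted p = 0.80, exact test). For neither word did members differ detectably from ranked-only peaks at paired promoters. Of these, 9.16% held GGTCAC and 5.24% held GAGAGA (adjusted p of 0.95 and 0.31, exact test).

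In the panel of 16 motifs, 1 was higher in members than in single-direction peaks (6.25% of the panel) and 1 lower (6.25%). ATTAAT, a rearrangement of the homeodomain core kept as a control of composition, was in 27.6% of members and 16.4% of single-direction peaks (odds ratio 1.94, with an adjusted p of 0.010 by the exact test). GAGAG was in 17.5% and 26.9% (odds ratio 0.58, with an adjusted p of 0.040 by the exact test). Neither word passed without replicate 1 (adjusted p = 0.51 for each, exact test) or without replicate 2 (0.13 for each). The homeodomain core TAATTA was in 69 members (25.7%) and 75 single-direction peaks (18.7%; adjusted p = 0.11), and the DRE in 14 members (5.22%) and 8 single-direction peaks (1.99%; adjusted p = 0.11), with neither passing the exact test. Within strata of GC content the DRE passed (odds ratio 3.05). Among ranked-only peaks at paired promoters 2.82% held the DRE (adjusted p = 0.060 against members, exact test). Where the summit lay between the starts, the DRE was in 5.53% of members and 5.95% of ranked-only peaks. ACAGTG, a word that earlier results of these data had named, was in 43 members (16.0%) and 92 single-direction peaks (22.9%; odds ratio 0.65, p = 0.11 adjusted over the panel, exact test). CGATA was in 88 members (32.8%) and 103 single-direction peaks (25.6%; adjusted p = 0.12, exact test). Ranked-only peaks at paired promoters held CGATA in 25.8% (adjusted p = 0.031, exact test). With the summit between the starts it was in 34.6% of members and 36.4% of ranked-only peaks.

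Against ranked-only peaks at paired promoters, many words differed, and few passed within strata of GC content. Of the hexamers, 306 (14.7%) were more frequent in members and 497 (23.9%) less frequent. The leading ones were TTAAAA, in 61.6% of members and 21.3% of ranked-only peaks (odds ratio 5.91), and TAAAAA, in 62.7% and 23.9% (5.34), and the lowest were GC-rich, such as GGAGGA, in 2.61% and 15.7% (0.15). Within strata of GC content 2 passed, CTACGC in 7.84% of members and 4.79% of ranked-only peaks (Mantel-Haenszel odds ratio 3.62) and CCCCGC in 5.60% of each (3.43). With the summit between the starts in both sets, an alternative added after the data were seen, 53 hexamers were higher and 25 lower, and within GC strata 1 passed, CTACGC, in 17 of 217 members (7.83%) and 25 of 1009 ranked-only peaks (2.48%; odds ratio 5.11). In the motif panel 9 (56.2%) were higher and 0 (0%) lower. TAATTA was in 25.7% of members and 9.13% of ranked-only peaks, and its 3 rearrangements differed by as much (odds ratios 3.13 to 3.92, against 3.46 for TAATTA). None of the 16 passed within GC strata, where 1 had an unadjusted p under 0.05.

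Words on the 2 sides of the summit were then read in the direction of the summit. This scan was added after the data were seen, because the strongest windows, read by eye, showed G-rich words on the left of an AT-rich centre and their reverse complements on the right. Those windows were part of the members scanned, so the p-values partly restate what prompted the scan. For each of 2016 hexamers that are not their own reverse complement, members with the word pointing only toward the summit within 150 bp were counted against those with it pointing only away, with an exact binomial test and Benjamini-Hochberg adjustment. Of these, 5 (0.248%) had a preferred direction in members. The same scan called 13 words in single-direction peaks and 55 in other arm peaks. In ranked-only peaks at paired promoters with the summit between the starts it called 5. Words with a preferred direction were thus not particular to members. ATGGGC pointed toward the summit in 33 members and away in 4 (adjusted p = 0.0022, exact), AGGTGG in 31 and 5 (0.013), GATGGG in 24 and 3 (0.033), GGGCGT in 21 and 2 (0.033), and AGTGGT in 29 and 6 (0.047). With starts within 500 bp ATGGGC and GATGGG passed and the other 3 did not, and with 400 bp windows AGGTGG and AGTGGT did not. None of the 5 passed without replicate 1 or without replicate 2, where ATGGGC had an adjusted p of 0.19 and 0.18 by the exact test and pointed toward the summit in 86.4% and 82.6% of the members that held it in 1 direction. ATGGGC and GATGGG and GGGCGT overlap in sequence, so they are not independent. Of the 268 members, 102 held at least 1 of the 5 pointing toward the summit, at median distances of 81 to 87 bp from it.

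Copies of ATGGGC are shown for the 8 strongest members of X, 2L, 3L and 3R that held one, with 10 bases on each side and the word in capitals, each written so that the word reads forward. All 8 point toward the summit.
Ugalt/eIF2Bbeta, chrX:2703957-2703982, minus strand: gctgcacgccATGGGCgtagcttgct
Tcs5/CHMP2B, chr3L:5139561-5139586, minus strand: taatgaaatcATGGGCgtagatggta
PNPase/Gprk2, chr3R:31404738-31404763, minus strand: tttgttttaaATGGGCattctagttt
CG5611/Mtl, chr3R:27636067-27636092, plus strand: cataggcagcATGGGCgtagtcgata
CG13390/CG17294, chr2L:8376782-8376807, plus strand: tcttgtgaccATGGGCatagtcagaa
CG1275/Elp5, chr3L:2257627-2257652, minus strand: gtcgtgctcaATGGGCcacactggcg
Trmt6/Ent2, chr2L:6562187-6562212, minus strand: gaccgtaagtATGGGCagtaaataat
CG10467/loj, chr3L:6094914-6094939, minus strand: tgtagcaaagATGGGCatttaaacat
Of the 37 copies in members that pointed toward the summit, 17 were followed by G and 15 preceded by C. The word continued as ATGGGCgtag at Ugalt/eIF2Bbeta, Tcs5/CHMP2B and CG5611/Mtl, and that continuation holds the reverse complement of CTACGC.

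The same 5 words were read in peaks that had no part in their choice. In single-direction peaks ATGGGC pointed toward the summit in 21 and away in 11 (exact binomial p = 0.11), AGGTGG in 23 and 21 (p = 0.88), GATGGG in 12 and 17 (p = 0.46), GGGCGT in 25 and 10 (p = 0.017) and AGTGGT in 32 and 20 (p = 0.13). In the other arm peaks AGTGGT pointed toward the summit in 76 and away in 32 (p = 2.76e-05, exact), ATGGGC in 49 and 39 (p = 0.34), AGGTGG in 36 and 32 (p = 0.72), GATGGG in 34 and 31 (p = 0.80) and GGGCGT in 34 and 24 (p = 0.24). In ranked-only peaks at paired promoters with the summit between the starts, the counts were 55 and 44 for ATGGGC (exact p = 0.31), 50 and 51 for AGGTGG (p = 1), 68 and 44 for GATGGG (p = 0.029), 38 and 38 for GGGCGT (p = 1) and 63 and 53 for AGTGGT (p = 0.40). Since the words were chosen for their direction in members, the difference between members and these peaks was given no test. Other words led elsewhere: CAGTGG pointed toward the summit in 69 and away in 14 single-direction peaks (p = 6.8e-10, exact), but in 30 and 18 members (p = 0.11). ACAGTG did so in 48 members, against 24 away (unadjusted p = 0.0063, exact), and in 85 single-direction peaks, against 33 away. Of 13 words called in single-direction peaks, 10 leaned the same way in members, 2 of them with an unadjusted p under 0.05 and 0 after adjustment.

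**Figure D5:**
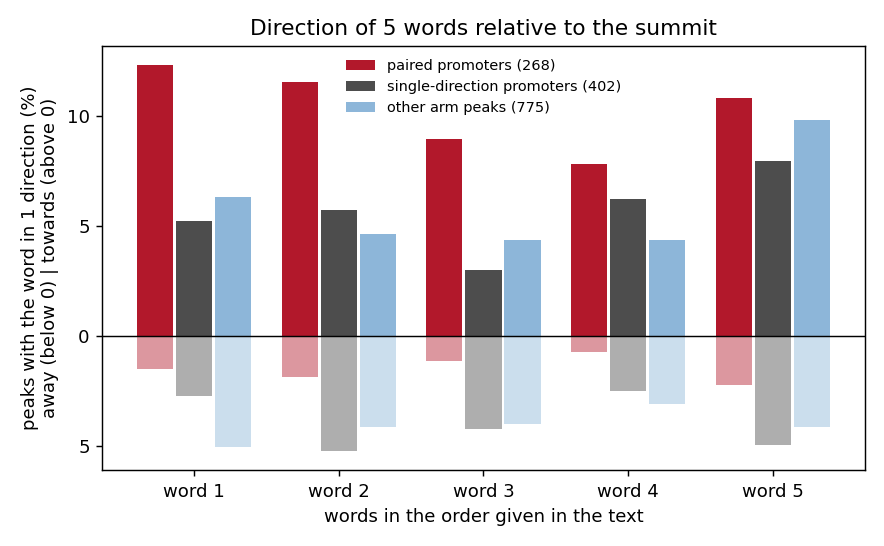
Share of peaks (y axis, %) that held a word pointing only toward the summit (above 0) or only away from it (below 0, paler) within 150 bp, for members, single-direction peaks and other arm peaks; words 1 to 5 are ATGGGC and AGGTGG and GATGGG and GGGCGT and AGTGGT. In members the bars above 0 run between 7.84% and 12.3%, and those below 0 between 0.746% and 2.24%.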

How the data were processed

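Peak lists of 2 biological replicates of Lim3-eGFP chromatin immunoprecipitation were used. Per the labels, coordinates are dm6. The authors deposited ranked and thresholded lists (irreproducible discovery rate, IDR) for each replicate and for both libraries together. The scale of the deposited signal, the aligner and the caller are not stated in the labels or file headers. The ranked lists also hold the authors' −log10 of the IDR, which was read but enters no value. Arm lengths of the release 6 reference cover all peak ends.

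Starts came from Ensembl release 115, transposons excluded. Peaks were matched across lists by an overlap of at least 1 bp, taking the nearest summit, and ranked by signal. Paired starts are the nearest on each strand. Shares carry Wilson 95% intervals, odds ratios Wald 95% intervals with 0.5 added to each cell, and Fisher's exact tests are two-sided. GC strata are bins of 5 percentage points with the Mantel-Haenszel method. Benjamini-Hochberg adjustment ran over 2080 hexamers, 16 motifs or 2016 oriented hexamers, at a threshold of 0.05. Word searches were tested on real windows with added words. Analyses used Python 3.11.15, SciPy 1.17.1, NumPy 2.4.6 and pandas 2.3.3.

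The members, lists and tests were chosen with earlier results of these data known. Named genes are those of the 10 strongest members, the lowest member, those at the limits, the 5 shortest and 5 longest distances between starts in both lists, and the 2 strongest members per gene list; further members were named after their values were seen. Hexamers named are the leading ones in each direction, and ACAGTG. The signal of 1 member with overlapping starts is not reported here.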

Additional observations from a re-analysis of the deposited data

How the results depend on the processing

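The share of paired promoters among listed peaks and the share of summits between the starts kept their direction and passed under all 8 alternatives tried for each, with odds ratios of 2.54 to 6.25 and 2.78 to 12.2. Among peaks listed in 1 replicate, the lean of members to replicate 1 held under its 7 alternatives. The odds ratio for being listed in both replicates, 1.17, became 0.95 with the conservative list. With listing in replicate 1 it was 1.65 and in replicate 2 it was 0.72, 1.55 and 0.65 with GC strata, and 1.73 and 0.71 with overlapping peaks counted once, an alternative added after the data were seen. The odds ratio for a signal above the median was 1.46 with starts within 500 bp, and 1.15 to 1.17 without a replicate. The count of hexamers that separated members from single-direction peaks, 2, was 0 with the conservative list, with the top 50% by signal, with 1 peak per pair or gene and with 100 bp windows, 1 with GC strata, 10 with starts within 500 bp, 63 with 500 bp windows, and 0 to 4 without a replicate. The panel count, 2, was 0 with the top 50%, with 100 bp windows and without either replicate, 1 with divergent pairs and with 1 peak per pair, 7 within 500 bp and 12 with 500 bp windows. Against ranked-only peaks, the count of 803 hexamers was 378 within 500 bp, 534 with 100 bp windows, 2 with GC strata, 78 with the summit between the starts, 1 with both, and 525 to 755 without a replicate. The panel count of 9 was 5 with the conservative list, within 500 bp, with 1 peak per pair and with the summit between the starts, 0 with GC strata, also between the starts, and 5 to 8 without a replicate. The 5 directional words became 0 with the conservative list, the top 50%, 200 bp windows and without either replicate, 8 with 1 peak per pair and 9 with 400 bp windows, where AGGTGG and AGTGGT did not pass. With starts within 500 bp 5 words passed, 2 of them among those named. Over all alternatives ATGGGC pointed toward the summit in 82.6% to 94.7% of the members that held it in 1 direction, AGGTGG in 72.5% to 90.5%, GATGGG in 83.3% to 100%, GGGCGT in 86.2% to 100% and AGTGGT in 72.3% to 88.5%. The odds ratio of ACAGTG against single-direction peaks was 1.11 with 100 bp windows. Where an alternative held fewer peaks, it held less power, and the cause of other changes was not tested. No paired analysis was possible because the design has 1 group. Read depth is unknown and 1 library per replicate limits what the replicates can show.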

Other observations

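The members were spread over 5 arms, with 64 on 3R, 62 on 3L, 61 on 2L, 54 on 2R and 27 on X. The 7 members whose starts overlapped included 4 in both replicates' lists. The signals of 6 of the 7 in the larger list were 224.0 at Adck1 with CG4741, 211.4 at Snp with CG13501, 179.5 at Cyt-c-d with CG31808, 160.2 at CG7220 with Daao1, 102.5 at CG4658 with CG5846 and 58.2 at Alp12 with Pax. The pair Uba3 and tum held 3 members, with 57.4, 21.9 and 20.4, and none was in replicate 2's list. These members were named after their values were seen.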
